A study of Macaca fascicularis with 9 samples.

Results

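SMIM2, DTHD1, TMTC1, RNASE1, FRY and ERC2 are 6 of the 29128 features measured in single nuclei of the cynomolgus monkey thalamus, and they were picked as genes whose levels set apart the oligodendrocyte clusters numbered 0 and 1 by the study's authors. The choice used the levels of these clusters themselves, so every difference between clusters below is a description and carries no test. Only the change of such a difference with treatment was tested. The working description was of genes on opposite sides of the 2 clusters. The data went against it: 5 of the 6 genes had their higher mean level in cluster 1 and RNASE1 alone had its higher mean in cluster 0.

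The animals were 9 female cynomolgus monkeys in 3 groups of 3. The saline group received 4 biweekly intravenous doses of saline. The ASO group received 1 intrathecal dose of 4 mg of an antisense oligonucleotide (ASO) against the nuclear non-coding RNA MALAT1. The OTV group received 4 biweekly intravenous doses of 30 mpk of OTV:MALAT1, an agent of the same named target that the labels do not describe further. Brain tissue, labelled thalamus, was taken 2 weeks after the last dose in each group, and the route and number of doses differed between the ASO group and both other groups. The labels do not say that animals with the same number in different groups belong together.

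Oligodendrocytes wrap axons in myelin and arise from oligodendrocyte precursor cells (OPCs), which divide, receive synapses from neurons and remain in the adult brain. Mature oligodendrocytes all express the myelin programme but differ in the rest of their transcripts, and OPALIN is a widely used marker of one kind of mature cell. FRY is a very large microtubule-associated protein that works with the NDR kinases STK38 and STK38L. ERC2 is a scaffold of the presynaptic active zone that binds RIM and other release proteins. TMTC1 is a protein of the endoplasmic reticulum that adds mannose to cadherins, DTHD1 carries a death domain, RNASE1 is a secreted ribonuclease best known from the vascular endothelium, and SMIM2 is a small membrane protein of unclear function.

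The annotation held 61578 oligodendrocyte nuclei in 7 clusters and 6233 OPC nuclei in 3 clusters, among 79994 nuclei in all. Oligodendrocyte UMIs, the counts of distinct RNA molecules, ranged from 4.80 M to 87.6 M per animal (M for 1e6), with the smallest total in saline 3 (1074 nuclei). The median oligodendrocyte nucleus held 2558 UMIs in OTV 3 and 4172 to 7812 in the other 8 animals. MALAT1 made up 6.42% to 6.87% of oligodendrocyte UMIs in the saline animals, 4.22% to 5.71% in the ASO animals and 3.03% to 3.95% in the OTV animals. The 9 measured oligodendrocyte markers each had their highest mean level in the nuclei named oligodendrocytes, and the 8 OPC markers theirs in OPCs. Saline 3 and ASO 3 stood apart in a list of 5 telencephalon genes, which summed to 2892 and 503 CPM, UMI counts scaled to a common library total, over all their nuclei, against 196 in saline 1 and 23.2 to 46.5 in the other 6, while a list of thalamus genes summed to 274 to 400 in all 9. A list of 5 stress genes summed over oligodendrocyte nuclei to 584 CPM in ASO 2 and 426 CPM in OTV 1, against 164 to 287 CPM in the other animals. Of the barcode sequences, 760 occurred in more than 1 library.

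Among the chosen genes, FRY and ERC2 differed most between clusters 0 and 1. FRY had a mean of 577 ± 136 CPM in cluster 0 (SD, n = 9 animals; lowest 369, median 561, highest 870) and 1452 ± 319 CPM in cluster 1 (lowest 993, median 1469, highest 1934). Every animal had more FRY in its cluster 1 than in its cluster 0, and even the lowest cluster 1 value lay above the highest of cluster 0. The difference within animals was 1.33 ± 0.19 on the log2 scale, a fold of 2.52, and ran from 0.95 in ASO 3 to 1.61 in OTV 3. ERC2 had 371 ± 212 CPM in cluster 0 (lowest 96.7, median 336, highest 709) and 953 ± 335 CPM in cluster 1 (lowest 320, median 957, highest 1541). It was also higher in cluster 1 in 9 of 9 animals, but its levels across animals overlapped between the clusters. Within animals its log2 difference was 1.51 ± 0.50, from 0.79 in saline 1 to 2.33 in OTV 1.

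The other 4 genes separated these clusters little. DTHD1 had 236 ± 143 CPM in cluster 0 (lowest 22.7, median 264, highest 413) and 315 ± 168 CPM in cluster 1 (lowest 31.4, median 383, highest 520), a log2 difference within animals of 0.49 ± 0.28 that was positive in 9 of 9. TMTC1 had 981 ± 301 CPM in cluster 0 (lowest 583, median 923, highest 1438) and 1091 ± 332 CPM in cluster 1 (lowest 656, median 1107, highest 1552). Its log2 difference was small and even across animals, at 0.15 ± 0.09 and positive in 9 of 9. SMIM2 had 111 ± 59.0 CPM in cluster 0 (lowest 25.3, median 107, highest 191) and 126 ± 60.3 CPM in cluster 1 (lowest 45.5, median 112, highest 221). It was higher in cluster 1 in 7 of 9 animals, by 0.28 ± 0.34 on the log2 scale, a mean smaller than the spread over animals. RNASE1 had 52.6 ± 27.6 CPM in cluster 0 (lowest 24.8, median 49.1, highest 118) and 46.8 ± 24.6 CPM in cluster 1 (lowest 19.6, median 38.9, highest 98.8). Its log2 difference of -0.18 ± 0.25 was again smaller than the spread, with cluster 1 the higher in 2 animals, ASO 2 and OTV 3. So 4 of the 6 genes were higher in cluster 1 in all 9 animals, where 4.73% of the 10177 features of at least 5 CPM were, and 9.82% of those features were lower in cluster 1 in all 9. The genes were chosen on this contrast, so nothing is read from that difference in shares.

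**Figure D1:**
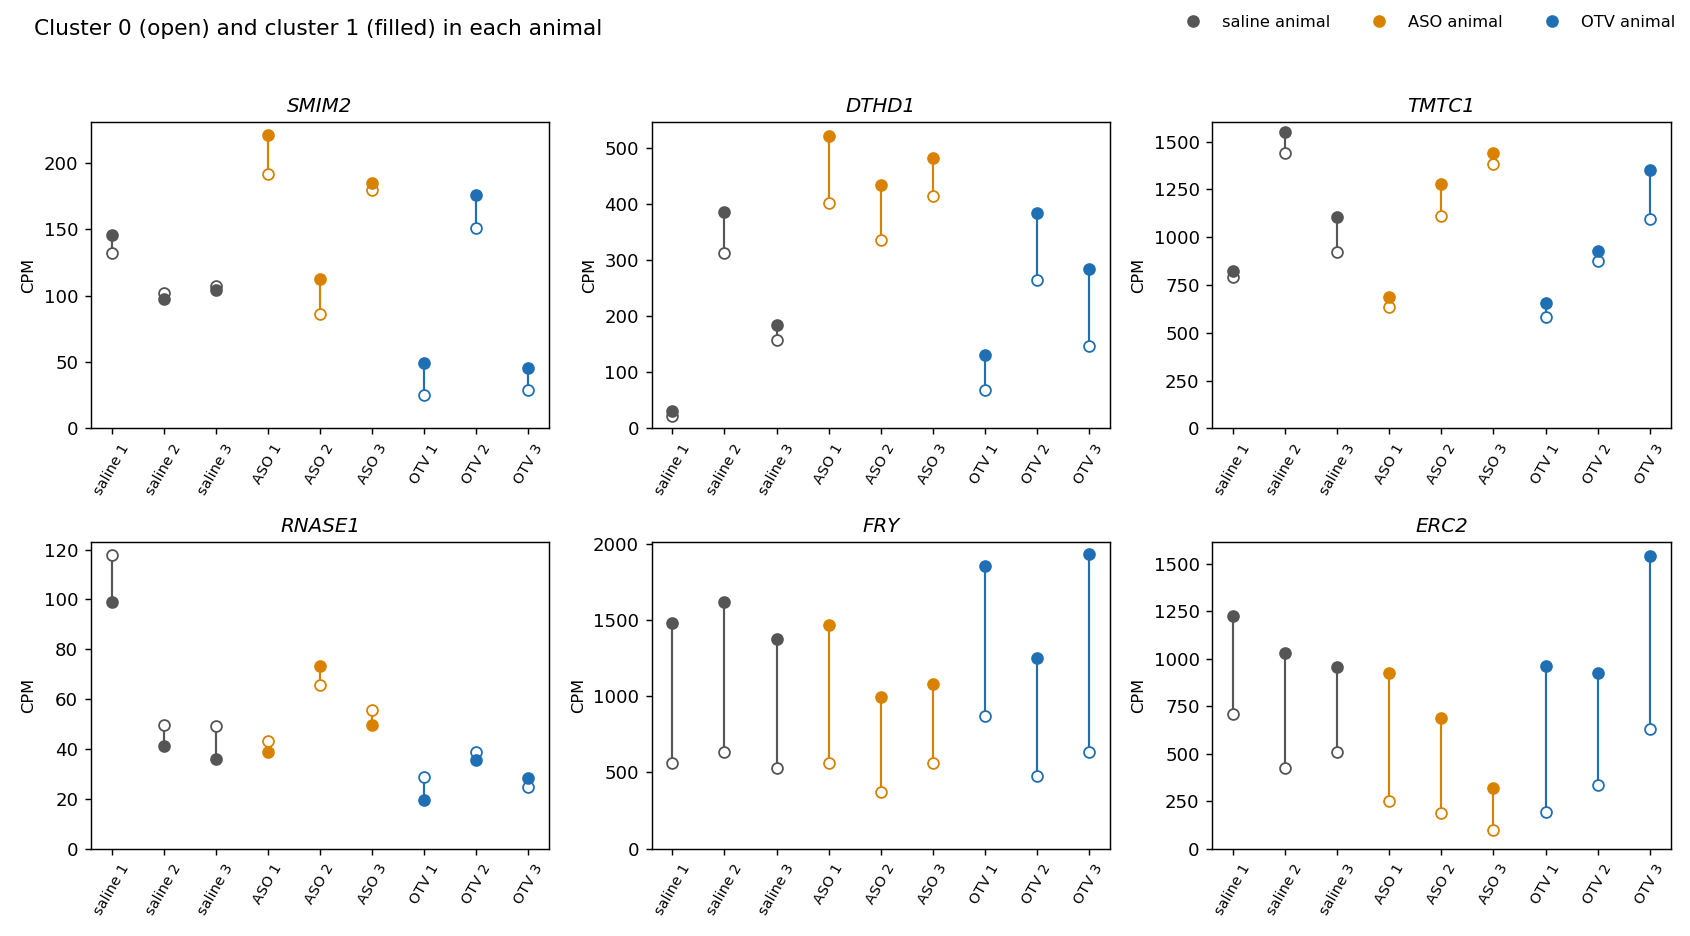
CPM of each gene (y axis, from 0) in cluster 0 (open circles) and cluster 1 (filled circles) of each animal (x axis), joined by a line and coloured by group. FRY and ERC2 rise from open to filled in all 9 animals, while SMIM2, DTHD1, TMTC1 and RNASE1 differ more between animals than between the clusters.

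Placed against the other oligodendrocyte clusters, all 6 genes had their lowest mean in the same cluster, cluster 10, and did not split into opposed sets. The clusters are given here in the order 1, 2, 0, 3, 5 and 10, which was chosen after the levels were seen. FRY had mean levels of 1452, 1102, 577, 200 ± 97.5, 101 ± 71.7 and 42.5 ± 29.8 CPM in that order. ERC2 had 953, 750, 371, 100 ± 114, 30.9 ± 27.4 and 13.9 ± 7.61 CPM. Each of the 5 steps of FRY and of ERC2 was downward in every animal with at least 20 nuclei in both clusters. DTHD1 had 315, 293, 236, 108 ± 69.8, 48.5 ± 28.5 and 18.6 ± 10.2 CPM, and TMTC1 had 1091, 985, 981, 660 ± 261, 409 ± 233 and 158 ± 122 CPM. For these genes clusters 1, 2 and 0 stood closer together and most of the fall came in clusters 3, 5 and 10. SMIM2 had 126, 129, 111, 70.8 ± 43.0, 50.8 ± 31.3 and 28.1 ± 14.7 CPM, and RNASE1 had 46.8, 50.3, 52.6, 44.3 ± 24.4, 32.1 ± 20.5 and 20.3 ± 15.9 CPM, with cluster 0 the highest of these 6 clusters.

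The span from cluster 1 to cluster 10 showed how unequal the falls were. Over the 8 animals with at least 20 nuclei in cluster 10, the fold within animals was 72.3 for ERC2, 41.0 for FRY, 16 for DTHD1, 8.08 for TMTC1, 4.67 for SMIM2 and 2.52 for RNASE1. Cluster 1 was the higher in 8 of 8 animals for each gene. Neighbouring clusters were not always separate: from cluster 1 to 2 the mean log2 difference was 0.02 ± 0.31 for SMIM2, 0.10 ± 0.25 for DTHD1 and -0.07 ± 0.19 for RNASE1, all within their spread. From cluster 0 to cluster 3 it was 2.39 ± 0.93 for ERC2, 1.65 ± 0.56 for FRY, 1.22 ± 0.39 for DTHD1, 0.62 ± 0.26 for TMTC1, 0.74 ± 0.61 for SMIM2 and 0.27 ± 0.33 for RNASE1. In each of the 6 genes saline 3 had the smallest of these 9 values, which was 0.44 for ERC2 and -0.20 for SMIM2. Its cluster 3 held only 65 nuclei. Over all its oligodendrocyte nuclei 7 neuron markers summed to 634 CPM, against 121 to 230 CPM in the other animals. The part of either in these values was not tested. Cluster 8, with a median of 3082 UMIs per nucleus, was left out of this order. Its levels of FRY (660 ± 258 CPM, n = 8) and ERC2 (332 ± 184 CPM) differed from those of cluster 0 by less than the spread over animals, at -0.14 ± 0.32 and 0.07 ± 0.70 for cluster 0 minus cluster 8. RNASE1 had its highest mean there, 79.2 ± 49.3 CPM, but cluster 0 minus cluster 8 was -0.32 ± 0.64, also within the spread. SMIM2 (0.36 ± 0.77) and DTHD1 (0.10 ± 0.31) lay within theirs too. TMTC1 did not, at 0.37 ± 0.16 and higher in cluster 0 in 8 of 8 animals.

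**Figure D2:**
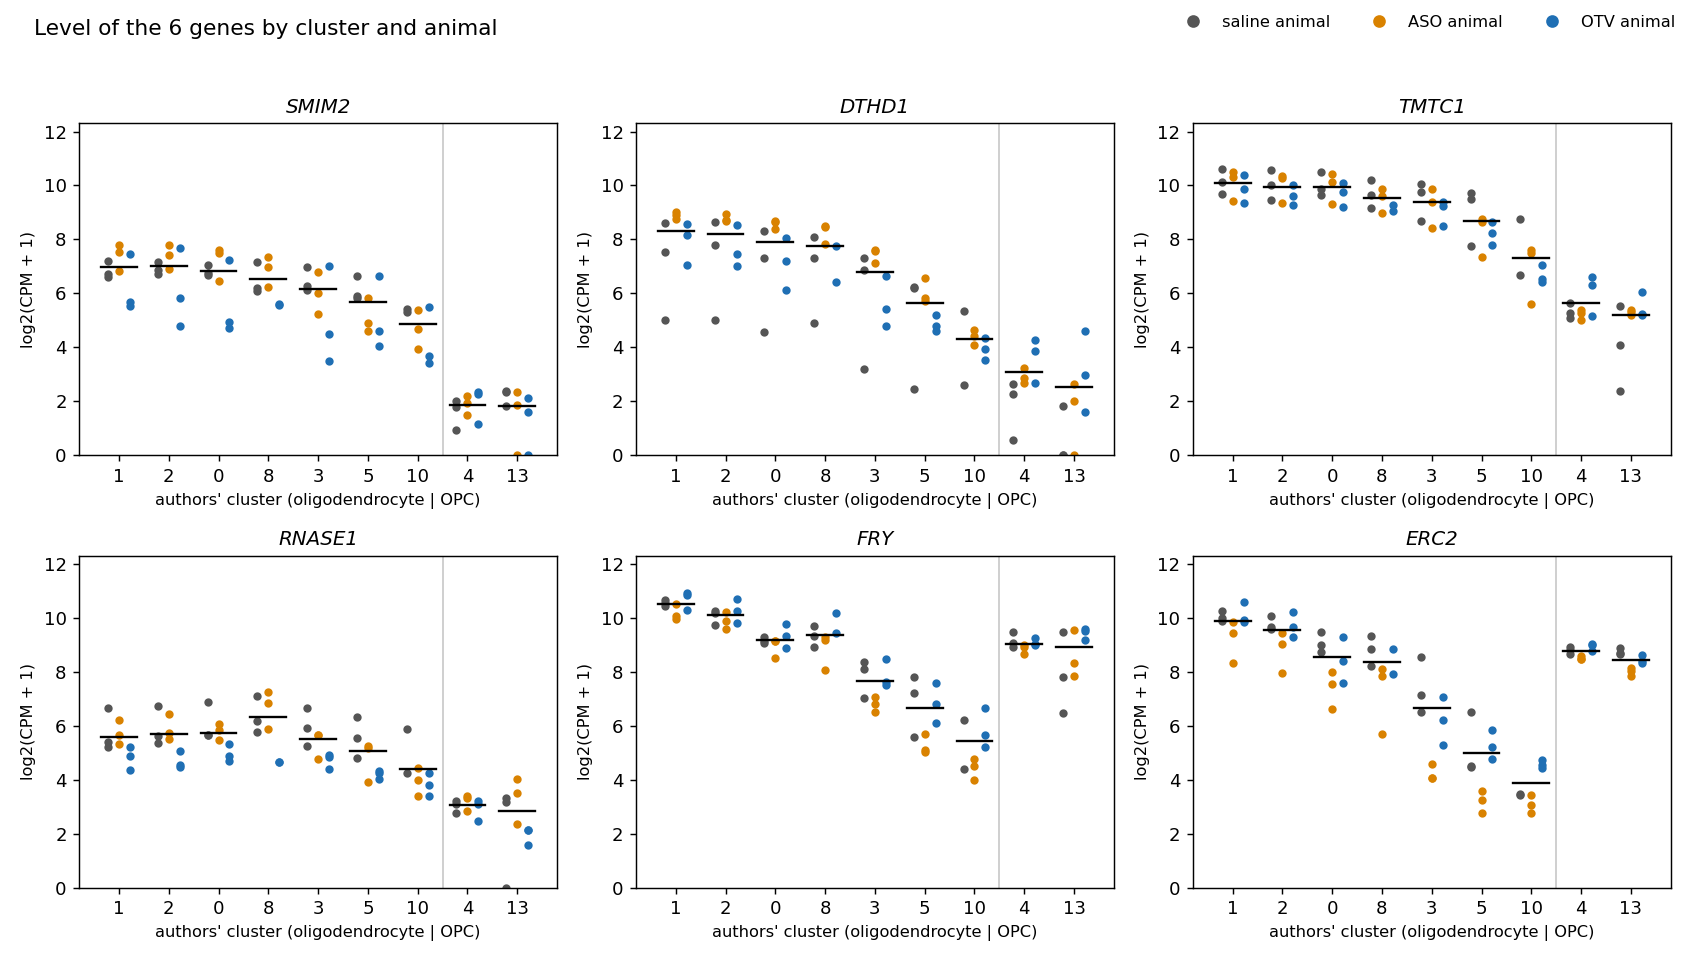
Level of each gene as log2(CPM + 1) (y axis) in 7 oligodendrocyte clusters and, right of the grey line, OPC clusters 4 and 13 (x axis, authors' cluster numbers). Points are animals with at least 20 nuclei, coloured by group, and bars are the mean CPM on that scale; all 6 genes are lowest in cluster 10 among the oligodendrocyte clusters, and FRY and ERC2 are high again in OPCs.

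Lists of oligodendrocyte genes did not move as a whole between clusters 0 and 1, and single genes of them went both ways. OPALIN, a membrane glycoprotein of myelin, had 797 CPM in cluster 1, 613 in cluster 0, 357 in cluster 3 and 55.8 in cluster 10, and was higher in cluster 1 than in cluster 0 in 9 of 9 animals. The opposite order was seen for SGCZ, a sarcoglycan, with 137, 254, 908 and 1780 CPM, and for SLC5A11, an inositol transporter, with 472, 708, 779 and 806 CPM. Of the 13 measured genes on the list of oligodendrocyte states, 2 were higher in cluster 1 than in cluster 0 in every animal (OPALIN and DSCAM), 2 were lower in every animal (SGCZ and SLC5A11), and the median log2 difference was -0.0038, against -0.05 over 10177 features. Of the 6 measured genes of immature oligodendrocytes, 1 was lower in cluster 1 in every animal, ENPP6, a choline phosphodiesterase, with 27.7, 88.1, 179 and 267 CPM in clusters 1, 0, 3 and 10. GPR17, a receptor of committed precursors, ran the other way at low levels, with 4.61, 3.51, 2.54 and 2.08 CPM, and TNS3 had 166, 167, 146 and 69.4 CPM. The median difference between clusters 1 and 0 over these 6 genes was -0.037. Of the 9 measured general oligodendrocyte markers, 2 were lower in cluster 1 in every animal: TF, which encodes transferrin, with 498 and 609 CPM in clusters 1 and 0, and ST18, a transcription factor, with 1228 and 1285 CPM. MOBP had 416 and 499.6 CPM, lower in cluster 1 in all but 1 animal, and MOG, a glycoprotein of the myelin surface, had 871 and 859 CPM. The 7 neuron markers summed to 311 CPM in cluster 1 (169.8 to 819 over animals) and 153 CPM in cluster 0 (67.5 to 559). This difference came from SYT1, with 256 and 94.5 CPM and higher in 9 of 9 animals. None of the other 6 was higher in every animal, and the defining neuronal marker RBFOX3 had 4.03 and 3.67 CPM. The 8 OPC markers summed to 421 CPM in cluster 1 and 353 CPM in cluster 0. Only SOX6 among them was higher in cluster 1 in every animal, with 117 and 62.9 CPM. None was lower in every animal, and the median log2 difference over these 8 was -0.049.

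The levels were also followed along an axis that did not use the 6 genes. It was the first principal component of the 30373 nuclei of both clusters over 8715 other genes, and it held 0.649% of their variance. Nuclei were ranked along it within each animal and split into 10 bins of equal size. The component was turned so that cluster 1 lay toward the last bin. Cluster 1 nuclei made up 0% of the first bin and 99.7% of the last. The ends were thus the clusters the genes were chosen on, so slopes are no separate evidence of a difference between them. FRY rose at each of the 9 steps, from 306 ± 125 CPM in the first bin to 859 ± 294 in the fifth and 2165 ± 435 in the last. ERC2 also rose at each step, from 159 ± 136 to 629 ± 284 and 1107 ± 292 CPM. Cluster 1 nuclei made up 31.7%, 55.4% and 78.4% of the fifth, sixth and seventh bins. Bins of equal numbers of nuclei span unequal stretches of the axis, so the sizes of the steps are not compared. The other genes had weaker slopes. DTHD1 went from 171 ± 123 to 284 ± 174 CPM and was higher in the last bin in 8 of 9 animals, and TMTC1 went from 803 ± 290 to 1059 ± 323 CPM and was higher in 9 of 9. SMIM2 had its highest mean, 136 ± 61.5 CPM, in the sixth bin and lower means at both ends, 100.4 ± 57.6 and 88.0 ± 50.5, although 6 of 9 animals were higher in the last bin than in the first. RNASE1 went from 52.5 ± 32.8 to 36.3 ± 21.5 CPM, higher in the last bin in 2 of 9 animals. The mean of the animals' median depths was 4970 UMIs in the first bin and 6262 in the last.

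The same axis built over all 61578 oligodendrocyte nuclei, an addition chosen after seeing the data, gave all 6 genes a higher mean in the last bin than in the first. It was turned so that cluster 1 lay higher than cluster 10. The first bin held means of 58.6% cluster 5 and 28.7% cluster 10 nuclei, and the last 32.6% cluster 1 and 56.4% cluster 2. The rise thus repeats the differences between clusters given above and is no separate evidence. ERC2 went from 36.3 ± 52.1 to 1041 ± 296 CPM and FRY from 82.4 ± 70.8 to 1711 ± 297 CPM, rising at each of the 9 steps. DTHD1 went from 42.4 ± 34.9 to 289 ± 161 CPM and TMTC1 from 337 ± 242 to 1013 ± 315 CPM. From the fifth bin on the means stayed between 283 and 309 CPM for DTHD1 and between 1007 and 1057 CPM for TMTC1. Median depth fell along this axis from 8360 to 3884 UMIs per nucleus, and its part in the slopes was not tested. On the axis of clusters 0 and 1 made from nuclei thinned to 1000 UMIs each, the fold from first to last bin was 6.05 for FRY and 8.07 for ERC2, against 7.48 and 9.29 without thinning.

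**Figure D3:**
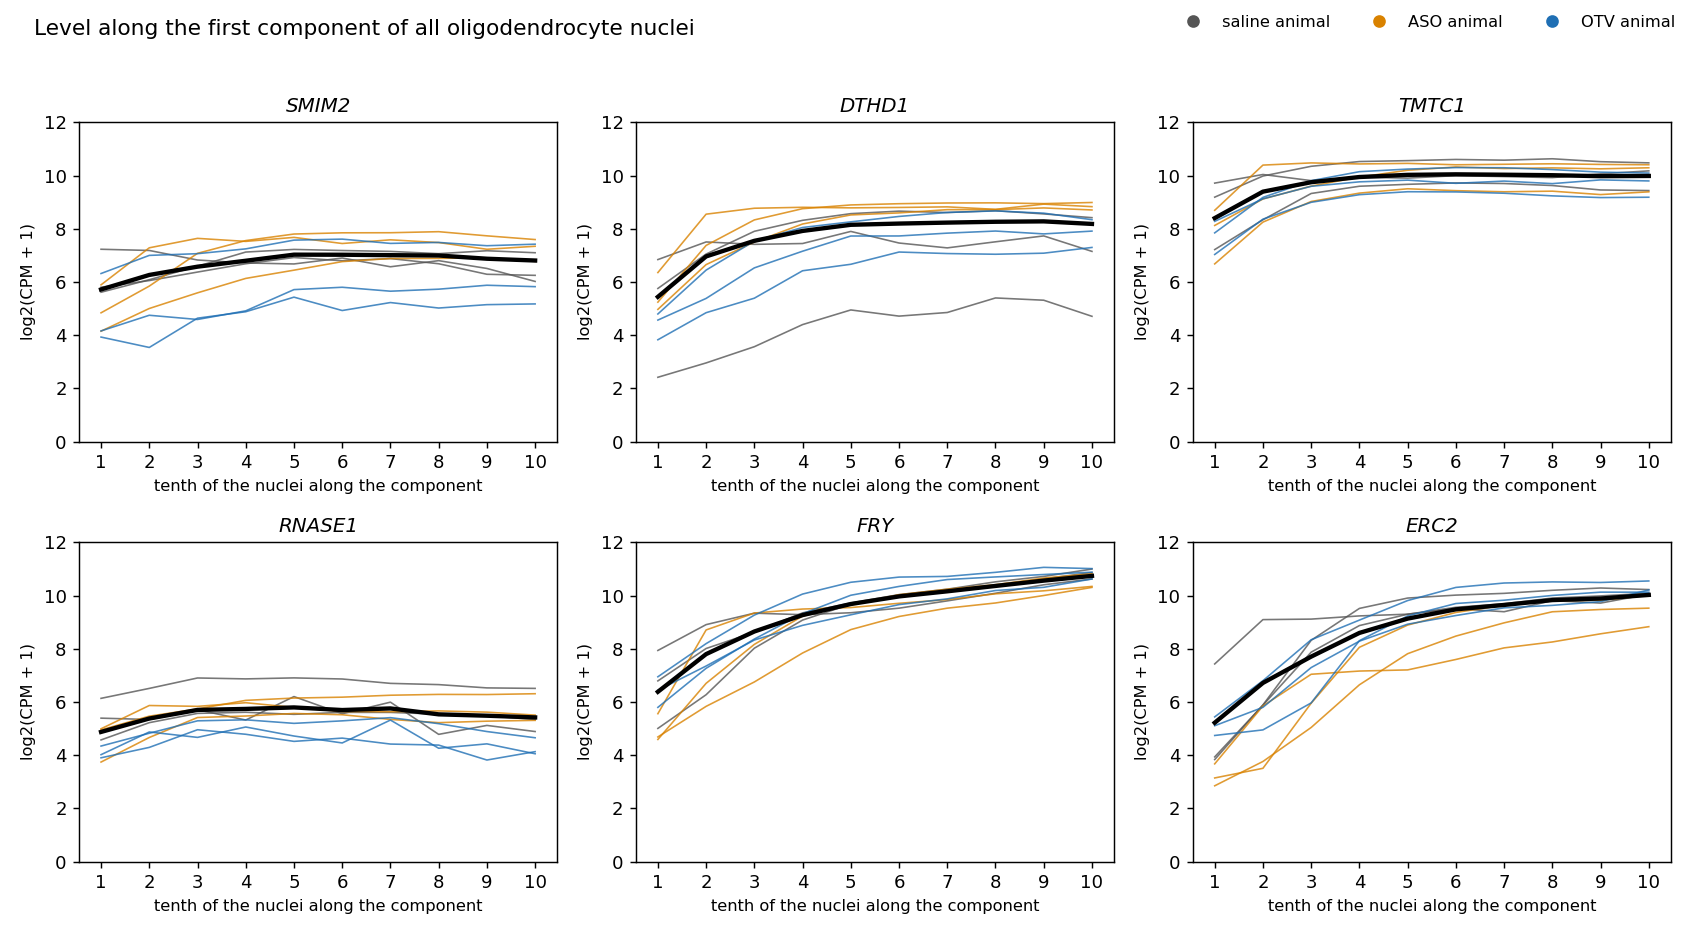
Level of each gene as log2(CPM + 1) (y axis) in bins of all oligodendrocyte nuclei ranked within each animal along a first principal component made without these genes (x axis). Thin lines are animals coloured by group and the thick line is the mean CPM; FRY and ERC2 climb along the whole axis, and DTHD1 and TMTC1 level off by the fifth bin.

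The authors' coarser clusterings drew their borders at other places. At resolution 0.1, 88.8% of cluster 0, 98.5% of cluster 1 and 100% of cluster 2 shared a cluster, and 99.6% of cluster 3 and 100% of clusters 5 and 10 shared another, along with 11.2% of cluster 0. At resolution 0.2, compared after seeing the data, cluster 0 was itself divided. The 58.8% of its nuclei placed with part of cluster 3 had 472 ± 124 CPM of FRY and 288 ± 188 of ERC2. The 25.6% placed with most of cluster 2 had 673 ± 204 and 454 ± 237 CPM, and the 15.6% placed with cluster 1 had 859 ± 255 and 588 ± 326 CPM. All 3 parts lay between cluster 3 (200 and 100 CPM) and cluster 1 (1452 and 953 CPM).

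Nucleus by nucleus, correlations between the genes were weak. Each nucleus was thinned to 1000 UMIs and Pearson's r was taken over the nuclei of each animal. Over all oligodendrocyte nuclei, 14 of the 15 pairs of genes had a mean r above 0, and the values ran from -0.0095 (DTHD1 and RNASE1) to 0.18. The top value was that of FRY and ERC2, 0.18 ± 0.05 (n = 9 animals, 0.09 to 0.25), and 11623 nuclei held both where 8625 were expected from their separate shares. Both genes fell in the same order of clusters. Values over all oligodendrocyte nuclei thus carry the differences between clusters given above and are no separate evidence. Within cluster 0 that pair had 0.06 ± 0.04 and was above 0 in 9 of 9 animals, and 11 of 15 pairs had a mean above 0. Within cluster 1 it had 0.02 ± 0.05, above 0 in 5 of 9 animals, and 6 of 15 pairs had a mean above 0. The lowest mean of any pair within a cluster was -0.034 ± 0.045, for SMIM2 and FRY in cluster 1. Correlations of this size in sparse counts are no finding, and the nuclei of an animal share a library. The clusters were formed with these genes among the data, which limits the values within a cluster. At 1000 UMIs, a mean of 9.12% of cluster 0 nuclei held an SMIM2 UMI, 18.4% a DTHD1 UMI, 4.98% an RNASE1 UMI, 54.1% a TMTC1 UMI, 38.0% a FRY UMI and 25.4% an ERC2 UMI. Without thinning these shares were 30.0%, 51.9%, 24.1%, 89.6%, 79.4% and 55.3%. In myeloid cluster 7 (median 3222 UMIs, against 6026 in cluster 0) the thinned shares were 0.39%, 1.79%, 1.84%, 6.40%, 7.46% and 4.75%.

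The genes were also grouped by slope. FRY or ERC2 was seen together with SMIM2, DTHD1 or TMTC1 in 34.5% of thinned cluster 0 nuclei, 1.03 times the share expected from the separate shares. In cluster 1 the share was 58.9%, 1.00 times the expected one. The mean r between the summed UMIs of both sets was 0.041 in cluster 0 (0.0056 to 0.116 over animals) and -0.045 in cluster 1 (-0.179 to 0.031). These sides were chosen after seeing the data. Counts per nucleus also differed between clusters. Nuclei with no FRY or ERC2 UMI made up 47.5 ± 9.0% of cluster 0, 15.5 ± 8.0% of cluster 1 and 78.7 ± 11.6% of cluster 3. Nuclei with 3 or more made up 9.78 ± 4.2% of cluster 0, 41.5 ± 14% of cluster 1 and 1.6 ± 1.8% of cluster 3. Whether all nuclei shifted or the mix of high and low nuclei changed was not tested.

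**Figure D4:**
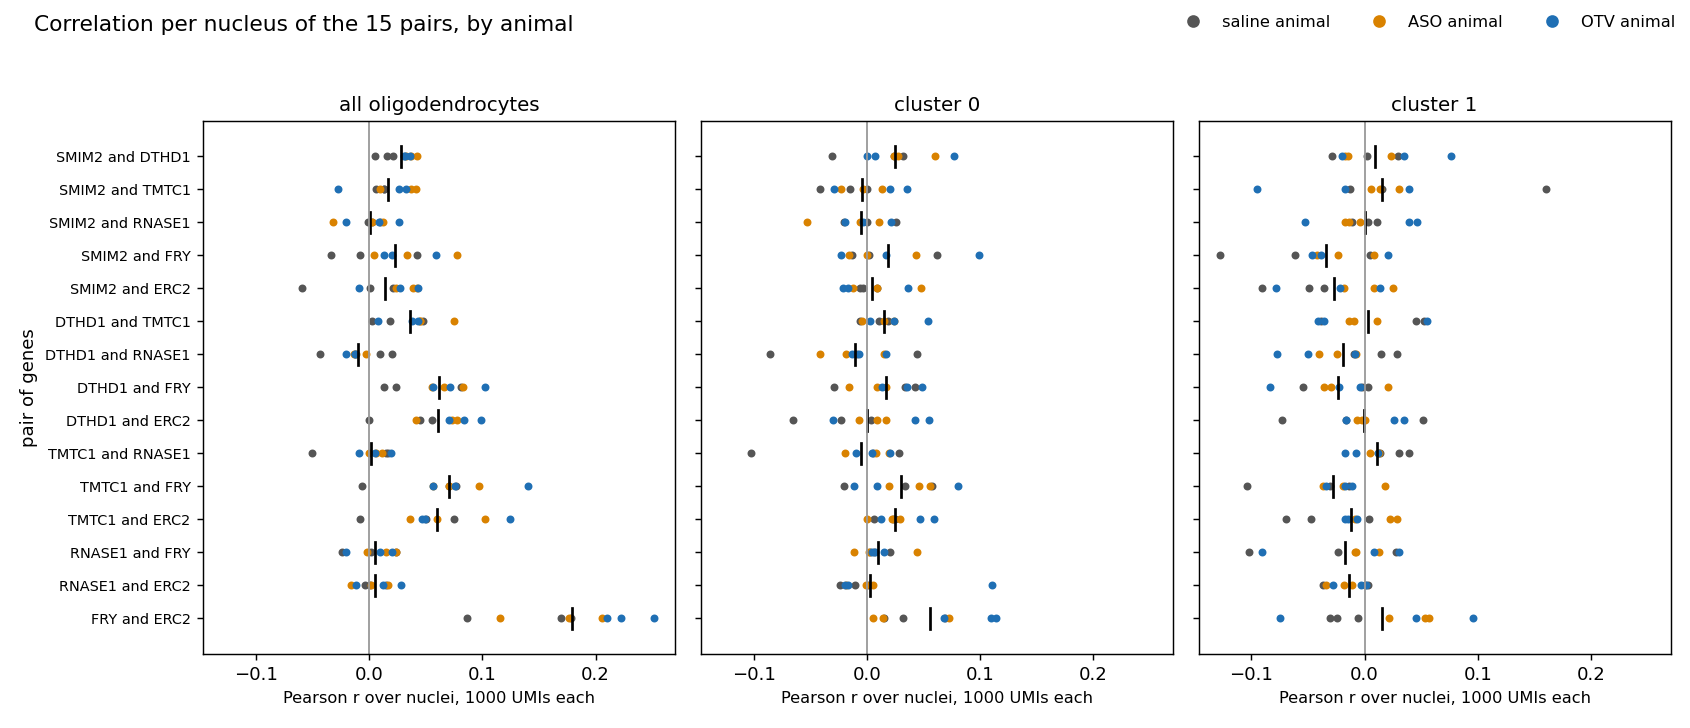
Pearson correlation over thinned nuclei (x axis) of each of the 15 pairs of genes (y axis) in all oligodendrocytes, cluster 0 and cluster 1. Points are animals coloured by group and bars are means over 9 animals; FRY and ERC2 reach 0.18 over all oligodendrocytes and 0.06 and 0.02 within clusters 0 and 1, and the lowest mean of a pair is -0.034.

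In OPCs, FRY and ERC2 stood above the level in myeloid nuclei, used here as a gauge of free RNA, in 9 of 9 animals. DTHD1 and RNASE1 lay below it in 9 of 9, and SMIM2 and TMTC1 lay above it in 5 of 9. Myeloid clusters 7 and 9 had medians of 3222 and 5308.5 UMIs per nucleus, against 7475.5 in OPC cluster 4. The part of this depth in the comparison was not tested. FRY had 527 ± 89.6 CPM in OPCs (n = 9; lowest 425, median 519, highest 704) and ERC2 425 ± 60.1 CPM (lowest 343, median 425, highest 499.6). Oligodendrocyte cluster 1 was higher than OPC cluster 4 by 2.71-fold for FRY (9 of 9 animals) and 2.06-fold for ERC2 (8 of 9), against 47.2-fold for SMIM2, 46.2-fold for DTHD1, 23.2-fold for TMTC1 and 5.80-fold for RNASE1 (9 of 9 each). The part of free RNA in the low OPC levels under the last 4 folds was not tested. The folds used no pseudocount, and SMIM2 had only 0.92 to 4.10 CPM over animals in OPC cluster 4. DTHD1 had 7.32 ± 5.32 CPM in OPCs, SMIM2 2.60 ± 0.96 CPM, RNASE1 7.59 ± 2.00 CPM and TMTC1 47.5 ± 20.9 CPM. The same genes had 15.1 ± 12.1, 3.95 ± 3.86, 14.2 ± 4.42 and 56.0 ± 46.2 CPM in myeloid nuclei, against 64.4 ± 42.9 CPM for FRY and 41.5 ± 36.2 CPM for ERC2. OPC clusters 4 and 13 had 529 ± 84.6 and 488 ± 270 CPM of FRY, a log2 difference of 0.40 ± 1.06 that was smaller than its spread. In ERC2 they had 434 ± 61.7 and 347 ± 80.8 CPM, cluster 4 the higher in 8 of 9 animals. OPC cluster 14 reached 20 nuclei in 3 animals and had 434 ± 35.7 CPM of FRY.

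Other cell types held some of the genes. In neurons (n = 7 animals) ERC2 had 740 ± 256 CPM, FRY 444 ± 52.6 CPM and TMTC1 397 ± 178 CPM. Astrocytes had 233 ± 75.9 CPM of TMTC1 and 154 ± 82.8 CPM of FRY. Cluster 15, which the authors left without a name, had 1158 ± 229 CPM of TMTC1 and 1312 ± 455 CPM of FRY over the 4 animals with at least 20 nuclei. The 7 endothelial and mural markers, given because endothelium is the best known source of RNASE1, summed to means of 22.6 to 34.8 CPM in the 7 oligodendrocyte clusters, lowest in cluster 8 and highest in cluster 10, and RNASE1 had its lowest mean in cluster 10. The order of the sum came from RGS5, a mural cell marker, with 8.90 CPM in cluster 8 and 25.9 CPM in cluster 10. Of the other 6 markers, 5 had their higher mean in cluster 8, among them PECAM1 with 3.15 and 1.98 CPM and PDGFRB with 4.04 and 0.935 CPM. The same list summed to 31.3 CPM in OPCs and to 664 CPM (192 to 896 over animals) in myeloid nuclei. The part of endothelial RNA in the RNASE1 levels of these cell types was not tested.

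FRY and ERC2 varied mainly by cluster, and SMIM2, DTHD1 and RNASE1 mainly by animal. Over the 5 oligodendrocyte clusters with 20 nuclei in every animal, the cluster accounted for 87.6% of the log2 spread of FRY and 80.6% of that of ERC2. For SMIM2 and RNASE1 it accounted for 25.9% and 13.4%, and the animal for 62.4% and 78.1%. DTHD1 had 40.1% by cluster and 57.0% by animal, and TMTC1 53.2% and 39.5%. Medians over 10296 features were 7.59% by cluster and 62.4% by animal. The genes were chosen on clusters 0 and 1, which are among these 5, so nothing is read from their larger cluster shares. DTHD1 varied most between animals: its SD over animals was 1.31 on the log2 scale, against a median of 0.29, and 2.60% of features had a larger one. Over all oligodendrocyte nuclei DTHD1 had 21.6, 289 and 173 CPM in saline 1 to 3, 362, 280 and 394 CPM in ASO 1 to 3, and 84.7, 246 and 137 CPM in OTV 1 to 3. Saline 1 was the lowest animal in each of the 7 oligodendrocyte clusters, in OPC cluster 4 (sums of at least 20 nuclei), and in astrocytes, myeloid nuclei and neurons. In the unnamed cluster 16 the same animal was not low, with 1671 CPM (293 UMIs in 25 nuclei) against 1781 CPM in ASO 3 (916 UMIs in 75 nuclei). SMIM2 had 115, 89.1 and 111 CPM in the saline animals, 160 (ASO 1), 75.8 and 164 CPM in the ASO animals, and 38.4, 149 and 25.8 CPM in the OTV animals, with OTV 1 and OTV 3 below all others.

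Treatment was not used to choose the genes and was tested over animals with edgeR's quasi-likelihood test, each p adjusted over all genes of the fit. The p-values cover the spread of 3 animals a group. Sums over all oligodendrocytes also carry the mix of clusters. Cluster 0 held 9.06% of the oligodendrocyte nuclei of OTV 1 and 25.2% to 35.5% of those of the other 8 animals. Cluster 8 held 22.9% in OTV 1 and 0.018% to 3.82% in the others, and cluster 1 held 17.7% to 29.0%. Cluster 2 held 24.4%, 25.8% and 32.1% in saline 1 to 3 and 24.5%, 17.3% and 21.6% in ASO 1 to 3. In OTV 1 to 3 cluster 2 held 21.3%, 23.7% and 31.5%. Cluster 3 held 4.48% to 15.1% over animals. The part of this mix in the differences over all oligodendrocytes was not tested. Over all oligodendrocyte nuclei, none of the 6 genes was called between ASO and saline, where 0.394% of 20036 genes were. At an unadjusted p under 0.05 it was 1 gene, ERC2, which the DESeq2 Wald test also called (log2 -1.12, adjusted p = 0.0204). Between OTV and saline 1 gene was called, RNASE1, against 19.2% of all genes, and between OTV and ASO 1 gene, ERC2, against 26.3%. These counts are no larger a share than the background. The median log2 difference over the 6 genes was -0.26, -0.30 and -0.55 in the 3 contrasts, against 0.01, -0.02 and -0.01 over all genes tested. Normalisation holds the median over all genes near 0. For OTV against ASO the 6 values ran from -1.06 (DTHD1) to 0.95 (ERC2), so no common shift is read from these medians. The contrasts share animals in pairs and are not independent.

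RNASE1 was lower in oligodendrocytes of OTV animals. It had 100.6, 41.5 and 44.0 CPM in saline 1 to 3, 35.0, 61.1 and 50.3 CPM in ASO 1 to 3, and 20.5, 32.3 and 23.4 CPM in OTV 1 to 3. All 3 OTV animals lay below all other animals. The log2 difference from saline was -1.26 (SE 0.37, adjusted p = 0.0453; adjusted p 0.00891 to 0.133 over the alternatives). Without saline 1 it was -0.70 (adjusted p = 0.129), and the call was also lost without ASO 3 (0.0623) and without OTV 1 (0.128), OTV 2 (0.0603) or OTV 3 (0.133), with no filter (0.0648) and in a fit of the 6 compared animals (0.0610). Within cluster 0 the difference was -1.22 (SE 0.37, adjusted p = 0.0556) and within cluster 1 -1.12 (SE 0.43, adjusted p = 0.133), so neither cluster alone passed. In myeloid nuclei RNASE1 had 20.7, 16 and 13.9 CPM in saline 1 to 3, 9.94, 19.3 and 17.3 CPM in ASO 1 to 3, and 10.2, 12.5 and 7.96 CPM in OTV 1 to 3. The OTV animals were thus also below the saline animals there. Myeloid nuclei also carried far more of the endothelial and mural markers, as given above, and the part of free RNA in the oligodendrocyte difference was not tested.

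ERC2 was lowest in ASO animals. It had 722, 553 and 656 CPM in saline 1 to 3, 442, 287 and 185 CPM in ASO 1 to 3, and 509, 444 and 714 CPM in OTV 1 to 3. The ASO animals lay below all others, with ASO 1 close to OTV 2. OTV against ASO differed by 0.95 on the log2 scale (SE 0.29, adjusted p = 0.0427; 0.0129 to 0.139 over the alternatives). The call was kept in 1 of the 9 fits that left out an animal, that without ASO 1 (log2 1.3), and the lowest value was 0.68 without ASO 3. Without each of the other 8 animals the adjusted p was 0.0501 to 0.139. The call was also lost with no filter (0.0727) and in a fit of the 6 compared animals (0.0697). Within cluster 0 OTV against ASO was 1.16 (SE 0.48, adjusted p = 0.119) and within cluster 1 0.88 (SE 0.36, adjusted p = 0.127), so neither cluster alone passed. ASO against saline differed by -1.12 over all oligodendrocytes (SE 0.30, adjusted p = 0.159). In myeloid nuclei, a gauge of free RNA, its level was 16.5, 16.3 and 51.8 CPM in the saline animals, 15.6, 7.66 and 11.9 CPM in the ASO animals and 62.6, 105 and 86.3 CPM in the OTV animals. The part of such free RNA in the oligodendrocyte difference was not tested.

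FRY, TMTC1, SMIM2 and DTHD1 were not called over all oligodendrocytes. OTV against ASO gave log2 values of 0.50 (SE 0.23, adjusted p = 0.143) for FRY, -0.29 (SE 0.35, adjusted p = 0.575) for TMTC1, -0.81 (SE 0.58, adjusted p = 0.338) for SMIM2 and -1.06 (SE 0.72, adjusted p = 0.310) for DTHD1. With such errors differences of 1 log2 unit can be missed. On simulated data for OTV against saline in oligodendrocytes, 22.7% of genes changed by 1 log2 unit and 56.2% of those changed by 2 were recovered. Only 97 and 96 of 19706 genes were changed there, while 3854 of 20036 were called in the real contrast. The adjusted p of a gene depends on how many others pass, so these shares are not the recovery of the real test. SMIM2 passed in one alternative, without OTV 2, at -1.65 against saline (adjusted p = 0.0179 by edgeR) and -1.96 against ASO (adjusted p = 0.00741). Within clusters 0 and 1 no gene was called in any contrast. Background shares were 0.286%, 15.6% and 22.3% in cluster 0 and 0.477%, 13% and 20.0% in cluster 1 in the order of contrasts used above. At an unadjusted p under 0.05 there were 1, 1 and 1 genes in cluster 0 and 0, 1 and 2 in cluster 1, and the DESeq2 Wald test called 1, 1 and 1 and 0, 1 and 2.

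The authors' clusters were formed with these genes among the data, a limit of the tests within a cluster and of the next test. Whether treatment shifted clusters 0 and 1 apart was tested by the interaction. It called 1 of the 6 genes in 1 contrast: the difference between cluster 1 and cluster 0 in DTHD1 was larger in OTV than in ASO animals by 0.47 (SE 0.09, adjusted p = 0.0413), where 0.269% of 17090 genes were called. DTHD1's log2 difference between the clusters was 0.92, 0.54 and 0.96 in OTV 1 to 3, 0.37, 0.37 and 0.22 in ASO 1 to 3, and 0.46, 0.30 and 0.23 in saline 1 to 3. All OTV animals lay above all others. The call was lost without ASO 1 (adjusted p = 0.0601), saline 3 (0.0842), OTV 1 (0.187) or OTV 3 (0.183), and against saline the value was 0.45 (SE 0.10, adjusted p = 0.163). In the contrast of ASO with saline no gene was called (background 0.0702%, 1 at an unadjusted p under 0.05), nor for OTV against saline (0.0585%, 2 at an unadjusted p under 0.05). DESeq2 was not run on the interaction.

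**Figure D5:**
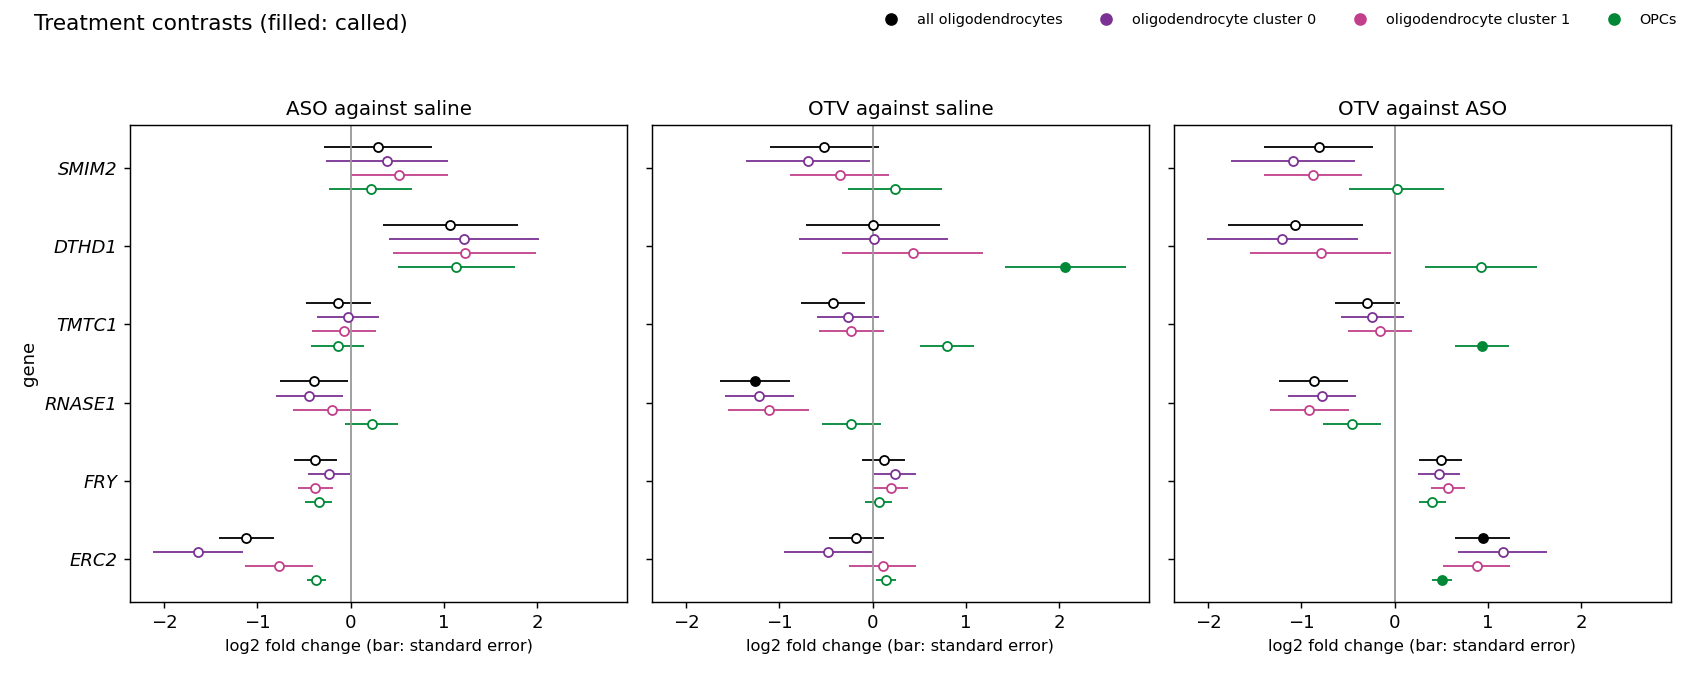
Log2 fold changes of the 6 genes (y axis) in 3 contrasts (panels) from the edgeR fits over animals, with standard errors as bars (x axis). Colours are the 4 sets of nuclei and filled circles are called at an adjusted p under 0.05: RNASE1 and ERC2 over all oligodendrocytes, and DTHD1, TMTC1 and ERC2 in OPCs.

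In OPCs 1 gene was called for OTV against saline (background 22.1%) and 2 for OTV against ASO (27.2%), and none for ASO against saline (0.262%; 2 at an unadjusted p under 0.05 and 0 by DESeq2). ERC2 had 343, 372 and 353 CPM in ASO 1 to 3, 497, 499.6 and 425 CPM in OTV 1 to 3, and 409, 478 and 446 CPM in saline 1 to 3. The 3 ASO animals were the lowest 3. OTV against ASO was 0.51 (SE 0.11, adjusted p = 0.00488), and the call held in all 15 alternatives (adjusted p 1.2e-04 to 0.0415; log2 0.45 to 0.58 with an animal left out). The ERC2 level in myeloid nuclei, given above, was also higher in OTV than in ASO animals, with means of 84.5 and 11.7 CPM, and its part in the OPC difference was not tested. TMTC1 in OPCs had 37.8, 39.8 and 32.6 CPM in ASO animals and 36.5, 73.3 and 91.9 CPM in OTV animals, a log2 difference of 0.93 (SE 0.29, adjusted p = 0.0377). The groups overlap through OTV 1, and the same animals had 18.1, 17.4 and 28.0 and 54.5, 106 and 139 CPM in myeloid nuclei. ASO 1 to 3 held 305, 214 and 201 TMTC1 UMIs in 921, 491 and 904 OPC nuclei. OTV 1 to 3 held 204, 165 and 172 in 734, 337 and 543. Over all cell types the median nucleus held 2579 UMIs in OTV 3 and 4741.5 to 7791 in the other animals. The part of depth in this call and in that of DTHD1 below was not tested. DTHD1 in OPCs had 0.44, 3.69 and 4.95 CPM in saline animals and 5.37, 14.7 and 17.1 CPM in OTV animals, a log2 difference of 2.07 (SE 0.65, adjusted p = 0.0463). These levels rest on 3, 34 and 18 UMIs in saline 1 to 3 and 30, 33 and 32 in OTV 1 to 3. In myeloid nuclei these animals had 1.40, 9.83 and 23.9 and 13.4, 40.3 and 23.9 CPM of DTHD1, above the OPC level in each of the 6. TMTC1 was lost without ASO 1, ASO 2, ASO 3, saline 2, OTV 2 or OTV 3, with a lowest log2 value of 0.65 without OTV 3 (adjusted p = 0.135). DTHD1 was lost without any of the animals other than saline 3 and OTV 1, with a lowest value of 1.51 without saline 1 (adjusted p = 0.0661). Both calls were also lost with no filter (adjusted p = 0.0651 for TMTC1 and 0.0977 for DTHD1), in fits of the 6 compared animals (0.0544 and 0.0895) and with sums thinned to the smallest total (0.129 and 0.208).

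Related genes were followed as a list of 27: O-mannosylation enzymes beside TMTC1, ribonucleases and their inhibitor, death domain proteins, the FRY paralog with NDR kinases and MOB proteins, and active zone proteins. Over all oligodendrocytes 23 were tested. None was called for ASO against saline or OTV against saline, and 2 were called for OTV against ASO, where 0.394%, 19.2% and 26.3% of all genes were called. The list medians were 0.03, -0.12 and -0.08. TMTC4, a relative of TMTC1, rose by 0.81 (SE 0.22, adjusted p = 0.0264) and STK38, an NDR kinase that FRY works with, fell by 0.38 (SE 0.11, adjusted p = 0.0278). In OPCs 20 were tested, and each of the 2 OTV contrasts called 4 of them, no larger a share than the 22.1% and 27.2% of all genes. None was called for ASO against saline (0.262% of all genes). For OTV against saline 3 rose and 1 fell: TMTC2 rose by 1.32 (SE 0.16, adjusted p = 0.00025), TMTC4 by 1.18 and UNC13A, which primes synaptic vesicles, by 0.67, while STK38L, the other NDR kinase, fell by 0.70. For OTV against ASO 4 rose and none fell: TMTC4 by 1.87, TMTC2 by 1.07, UNC13A by 0.80 and ERC1, the close relative of ERC2, by 0.35 (SE 0.09, adjusted p = 0.0128). Of the 13 oligodendrocyte state genes tested over all oligodendrocytes, 2 rose and 2 fell for OTV against saline. OPALIN fell by 1.05 (SE 0.20, adjusted p = 0.00707) and APOD by 1.80, while LAMA2 rose by 0.95 and PLXDC2 by 1.11. For OTV against ASO 3 rose and 1 fell: DSCAM rose by 2.48, PLXDC2 by 2.47 and LAMA2 by 1.49, and OPALIN fell by 0.96. None was called for ASO against saline.

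Genes most like each member were found over 61 sums of an oligodendrocyte cluster in an animal, with the animal mean removed. FRY followed PTPDC1, CNTN1 and KCNH8 (r 0.981, 0.979 and 0.979), and ERC2 followed CNTN1, LRFN5 and ZFPM2 (r 0.982, 0.977 and 0.973), so CNTN1, an axonal adhesion molecule of the contactin family, stood on both lists. TMTC1 followed ERBB4, CLMN and KCNK10 (r 0.981, 0.981 and 0.975). DTHD1 followed PALM2AKAP2, LRP4 and PREX1 (r 0.975, 0.975 and 0.964). SMIM2 followed DPYD, EDIL3 and NLGN1 (r 0.925, 0.924 and 0.919) and RNASE1 followed TOM1L2, TTYH2 and SELENOW (r 0.871, 0.870 and 0.848). Among the members r was highest for FRY with ERC2 (0.967) and lowest for RNASE1 with ERC2 (0.700). The sums share libraries and depth, and the values carry no test. The sources used here do not give the strand of counting, and DTHD1, TMTC1, FRY and ERC2 overlap other genes in the RefSeq table, so reads of overlapping genes cannot be told apart. SMIM2 was absent from that table, so its overlaps are unknown.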

How the data were processed

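Nuclei from the brains of 9 animals were profiled with 10x Genomics droplet RNA sequencing. The deposited matrix holds raw UMI counts per feature and nucleus, and the deposited table of nuclei holds the authors' clusters, cell types and a doublet score. Cell Ranger 6.1.2 and Seurat 4 are named per the submitters' processing notes. These also name a human genome build, while the features carry cynomolgus identifiers, so the build is not taken as known and no coordinates or sequences are given. No nuclei were removed here, and nuclei with a doublet score over 0.25 were left out as an alternative.

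Counts were summed per animal and cluster or cell type (at least 20 nuclei) and given in CPM. Log2 differences of the 6 genes between clusters or bins used no pseudocount. A pseudocount of 1 CPM was used for the marker and state lists, the spread shares, the like genes and the log2 levels in figures. Treatment was tested with edgeR 4.0.16 (R 4.3.3) by the quasi-likelihood test and p-values were adjusted over all genes of a fit by the Benjamini-Hochberg method, with a call at an adjusted p under 0.05. DESeq2 1.42.0 was an alternative. The test was checked on simulated data. For shares and correlations each nucleus was thinned to 1000 UMIs. The 6 genes are always named, and the 3 most like genes of each were those with the highest Pearson r over sums with a mean of at least 5 CPM, each animal's mean removed. The members and lists were chosen with earlier results of these data known.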

Additional observations from a re-analysis of the deposited data

Results flagged for a closer look

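The difference between cluster 1 and cluster 0 in DTHD1 was larger in OTV than in ASO animals, by 0.47 on the log2 scale (SE 0.09, edgeR's quasi-likelihood test, adjusted p = 0.0413), and stood out because a test of the difference between the groups' effects passed. All 3 OTV animals showed it. The call was kept in 5 of 9 fits that left out an animal, with values of 0.36 to 0.60. For OTV against saline the same test gave 0.45 (SE 0.10, adjusted p = 0.163), which was not called. The clusters were formed with these genes among the data, which limits the test.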

How the results depend on the processing

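Numbers of the 6 genes called changed as follows. The DESeq2 Wald test called 1 in all oligodendrocytes for ASO against saline, 1, 1 and 1 in cluster 0, 1 (OTV against saline) and 2 (OTV against ASO) in cluster 1, and 2 in OPCs for OTV against saline. With no filter on low counts 0 and 0 were called in all oligodendrocytes for OTV against saline and against ASO, 0 and 1 in OPCs, and 2 in the interaction for OTV against saline. With the 6 compared animals only, 0 were called for OTV against saline in all oligodendrocytes and 0 in OPCs, and 1 in cluster 0 for OTV against ASO. Thinned sums gave 0 (OTV against saline) and 1 (OTV against ASO) in OPCs, and leaving out nuclei with high doublet scores gave 1 in cluster 1 for OTV against ASO. The cause was not tested. With an animal left out, counts for the contrasts of ASO with saline, OTV with saline and OTV with ASO ran 0 to 0, 0 to 1 and 0 to 1 in all oligodendrocytes, 0 to 0, 0 to 1 and 0 to 2 in cluster 0 and in cluster 1, 0 to 0, 0 to 2 and 1 to 3 in OPCs, and 0 to 0, 0 to 2 and 0 to 2 in the interaction.

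DTHD1 in all oligodendrocytes for OTV against saline turned from 0.0055 to -0.025 with no filter, -0.016 with the 6 compared animals and -0.029 with thinned sums, and ran from -0.52 to 0.74 with an animal left out. Other ranges across 0 with an animal left out, for ASO against saline, were -0.64 to 0.17 for RNASE1 and -0.42 to 0.14 for TMTC1 in all oligodendrocytes, -0.25 to 0.043 for TMTC1 in OPCs and -0.046 to 0.045 for DTHD1 in the interaction, and for OTV against saline -0.15 to 0.30 for FRY in all oligodendrocytes. Genes called in all oligodendrocytes (in the same order of contrasts) numbered 79, 3854 and 5269, and 17 to 78, 2299 to 3666 and 3626 to 5615 with an animal left out. Other settings moved these counts by over 1.5 times: the DESeq2 Wald test gave 664 for ASO against saline, the 6 compared animals 40, and thinned sums 14, 386 and 722. In OPCs (39, 3286 and 4044) the first contrast gave 215 by DESeq2, 95 with no filter and 3 with the 6 compared animals, thinned sums gave 12, 1294 and 1690, and an animal left out gave 2 to 35, 2086 to 3194 and 2780 to 4248.

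Thinning to 500 UMIs left 6 pairs with a mean r above 0 in cluster 0. On the axis of all oligodendrocyte nuclei the log2 difference between last and first bins was 1.31 for SMIM2, 2.91 for DTHD1, 1.84 for TMTC1, 0.54 for RNASE1, 4.78 for FRY and 5.59 for ERC2, an axis over more clusters. No paired analysis was possible because replicate numbers were given in accession order and pair no animals.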

Other observations

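DTHD1 was highest in the unnamed cluster 16, at 1671 CPM in saline 1, 1723 CPM in saline 3 (110 UMIs in 14 nuclei) and 1781 CPM in ASO 3. Saline 1 had 21.6 CPM of DTHD1 over its oligodendrocytes, the lowest of the 9 animals. This cluster was singled out after its values were seen, and it held at least 20 nuclei in 2 animals.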
